A study of Mus musculus with 8 samples.

Results

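Neuroglobin (Ngb), cytoglobin (Cygb) and the 4 adult hemoglobin genes of the mouse (Hba-a1, Hba-a2, Hbb-bs and Hbb-bt) were taken from the count table by gene name. They are 6 of its 55416 genes, and all 6 were among the 18627 genes that received an adjusted p. The group was chosen by the differences between L192P and WT in these same counts, with earlier results of that comparison known, so the differences of the 6 genes are given as a description. Where one of the 6 is said to be called, this describes the fit over all genes on the contrast that chose it and supports nothing further. The RNA came from the cerebral cortex of mice that carried 1 Ago2 allele with the L192P substitution (genotype AGO2_L192P/+, here L192P, 4 libraries) and of wild-type mice (WT, 4 libraries). The L192P animals were CRISPR/Cas knock-ins of a line outcrossed to C57/Bl6, each with 1 heterozygous and 1 WT parent. Argonaute 2, the product of Ago2, carries miRNAs to sites in mRNAs and represses them, and the comparison asked which cortical mRNAs differ in level between the genotypes. The labels give neither age nor sex, and they do not say whether the libraries are from separate animals, so errors and p-values measure the spread between libraries.

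Globins are small heme proteins that bind oxygen and other gases. Hemoglobin is built from alpha and beta chains and is made in precursors of red cells, whose youngest circulating form, the reticulocyte, still holds hemoglobin mRNA, so that blood left in a dissected tissue brings these transcripts with it, and some neurons and glia are also known to express hemoglobin chains. Neuroglobin is a globin of neurons that is best known from the hypothalamus and brain stem and is sparse in cortex. Cytoglobin is known from fibroblasts and related stromal cells and from a subset of neurons.

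The 4 hemoglobin genes are pairs of near-identical copies, and the sequences below show how little separates them. Hba-a1 (GRCm39 chromosome 11, 32233186 to 32234504, plus strand) and Hba-a2 (chromosome 11, 32246168 to 32247320, plus strand) encode the alpha chain, and their coding sequences of 429 bases differ at 1 position. Hbb-bs (chromosome 7, 103475730 to 103482989, minus strand) and Hbb-bt (chromosome 7, 103461727 to 103465047, minus strand) encode the beta chain, and their 444 coding bases also differ at 1 position. Counted from 1 at the first base of the start codon, the differences are C381T between Hba-a1 and Hba-a2 and C417T between Hbb-bs and Hbb-bt. Each is shown with 20 coding bases on either side, read from the canonical transcripts of GENCODE M39, with the differing base in capitals.
Hba-a1: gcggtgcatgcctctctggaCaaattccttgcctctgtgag
Hba-a2: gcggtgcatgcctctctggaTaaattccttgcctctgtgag
Hbb-bs: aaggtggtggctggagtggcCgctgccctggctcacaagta
Hbb-bt: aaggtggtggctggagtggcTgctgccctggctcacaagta
Of all stretches of 50 bases in the canonical transcript, 82.7% of those in Hba-a1 occur unchanged in Hba-a2 and 91.6% of those in Hba-a2 occur in Hba-a1. The shares were 62.3% for Hbb-bs in Hbb-bt and 58.2% for Hbb-bt in Hbb-bs. No stretch of 50 bases was shared between an alpha and a beta gene, or between Ngb or Cygb and any other of the 6. How reads that match both copies were counted is not given in the sources used here, so the split of counts within each hemoglobin pair is uncertain. Pair sums are given beside the single genes, and they too would be low if such reads were left out. The alpha copies share more of their sequence than the beta copies, so a comparison of alpha with beta depends on this as well.

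RefSeq gave promoter sequence for the 4 hemoglobin genes. The last 130 bases before the transcription start are printed because all 4 genes shared 1 arrangement of libraries, below WT in the pair of replicate 1 and above it in the other pairs. Capitals mark the letters CACCC, the element that erythroid Klf1 recognises. They also mark CCAAT on either strand, which is the element of the factor of that name. The third element in capitals is ATATAA, which resembles a TATA box. The coordinates are those of GRCm38.p6, the build of the table.
Hba-a1, chr11:32283542-32283671, plus strand: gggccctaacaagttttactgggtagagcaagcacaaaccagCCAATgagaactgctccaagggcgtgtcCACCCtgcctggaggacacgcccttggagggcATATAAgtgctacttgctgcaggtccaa
Hba-a2, chr11:32296362-32296491, plus strand: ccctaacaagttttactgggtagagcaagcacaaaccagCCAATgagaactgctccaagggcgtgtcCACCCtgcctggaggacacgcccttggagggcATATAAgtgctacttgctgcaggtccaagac
Hbb-bs, chr7:103827929-103828058, minus strand: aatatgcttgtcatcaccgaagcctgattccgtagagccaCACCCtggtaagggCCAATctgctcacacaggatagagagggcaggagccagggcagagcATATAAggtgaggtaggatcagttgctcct
Hbb-bt, chr7:103813924-103814053, minus strand: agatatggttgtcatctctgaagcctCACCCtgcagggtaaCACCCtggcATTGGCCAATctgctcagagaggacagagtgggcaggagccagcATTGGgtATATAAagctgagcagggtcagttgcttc
The Hba-a1 and Hba-a2 stretches were identical over 127 aligned bases, and those of Hbb-bs and Hbb-bt matched at 81.0% of 126 aligned bases. Searched on both strands over the 250 bases before the start, all 4 genes held each of these elements and also GATAAG, the element of the Gata factors. All 32851 promoters of the table were searched over a longer window, which also took in 50 bases after the start. Of these, 57.5% held the Klf1 element, 37.4% held the CCAAT element, 9.82% held the TATA-like element and 7.44% held the Gata element. In Hbb-bt the CCAAT elements of both strands lie side by side without overlap. These are matches of letters only.

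Because Argonaute 2 acts through miRNAs, the 3′ ends of the 6 mRNAs were searched for exact 7-base matches to the seeds of 11 miRNAs that are abundant in brain or were named by the study. miR-124-3p was not searched. The 3′ untranslated region of Ngb, 881 bases long, held 1 match, to miR-30a-5p, which begins at its base 367. The other 5 genes held none for the 11 miRNAs, and their untranslated regions were 90 to 133 bases long for the hemoglobin genes and 1105 bases for Cygb. The match is printed in capitals below with its neighbouring bases, and the seed is in capitals in the miRNA.
Ngb site: ccctgccaagcTGTTTACtttccaacaat
miR-30a-5p: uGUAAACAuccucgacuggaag
The same 7 bases occur in 14.7% of 20721 mouse 3′ untranslated regions.

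The libraries held 20396357 to 43575900 counts, WT replicate 2 being the deepest. Values are counts divided by DESeq2 size factors (normalized counts), and a gene is described as called if its p, adjusted over all genes tested, was under 0.05. Ago2 itself had 2291 ± 75.1 normalized counts in L192P and 2246 ± 130.4 in WT (SD, n = 4), a log2 fold change of 0.03 ± 0.06 (SE, DESeq2 adjusted p = 0.968), and RNA counts do not separate the alleles. Markers of cortical tissue were present in every library, with Slc17a7 between 28890 and 34030 normalized counts. Replicate 1 of either genotype stood apart from the other 6 libraries, with Xist at 0.934 (L192P) and 1.82 (WT) against 5185 to 7257 normalized counts, and with Ddx3y at 1524 and 1561 against 0. Results that rest on these libraries are therefore given with and without them. In the comparison of all genes, 253 of 18627 were called (1.36%), of which 147 were higher in L192P (0.789% of those tested) and 106 were lower (0.569%). The share called was 0.314% with edgeR, 0.266% with limma-voom, 4.25% with the replicate number as a block and 3.46% among replicates 2 to 4. Calls of list genes are to be set beside these shares. Counts of list genes at an unadjusted p under 0.05 are given without the share of all genes there, and nothing is read from them.

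Levels were compared between genes per kilobase of the canonical transcript, whose length is 1633 bases for Ngb, 2591 for Cygb, 738 for Hba-a1, 647 for Hba-a2, 664 for Hbb-bs and 704 for Hbb-bt. In WT cortex Hbb-bs stood first at 1529 ± 253.8 normalized counts per kilobase (SD, n = 4), followed by Hba-a1 at 986.0 ± 185.8 and Cygb at 743.1 ± 32.4. Hba-a2 (146.4 ± 32.1), Hbb-bt (109.5 ± 40.1) and Ngb (87.3 ± 20.7) formed a lower tier. Neighbours within either tier overlapped in their WT libraries, since the ranges were 1193 to 1783 for Hbb-bs, 768.4 to 1206 for Hba-a1 and 705.7 to 784.8 for Cygb, whereas no library of a gene in the upper tier came near the 191.4 of the highest Hba-a2 library. In L192P the order of the means was the same for the upper tier, and Ngb, at 199.5 ± 24.0 normalized counts per kilobase, stood above Hba-a2 (174.3 ± 77.1) and Hbb-bt (103.1 ± 20.4). The L192P libraries of Ngb (176.5 to 230.0) overlapped those of Hba-a2 (88.1 to 251.3) and not those of Hbb-bt (77.0 to 119.6). Per kilobase and over the 4 genes summed, WT cortex held 2771 ± 494.4 normalized counts of hemoglobin. These hemoglobin levels, and their order beside Ngb and Cygb, depend on how reads common to the copies were counted, which is not known.

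Ngb (chromosome 12, 87144299 to 87149330, minus strand) was more abundant in every L192P library than in any WT library. L192P replicates 1 to 4 had 375.6, 301.6, 288.3 and 337.8 normalized counts. The WT replicates had 184.9, 146.9, 135.8 and 103.0 in the same order. The gap between the genotypes, from 184.9 to 288.3, was wider than the range within either, and WT replicate 1 and L192P replicate 1 were the highest of their genotypes. Group means were 325.8 ± 39.2 and 142.6 ± 33.7 (SD, n = 4), a ratio of 2.28, and the fitted log2 fold change was 1.18 ± 0.16 (SE). Between libraries with the same replicate number, the log2 ratio of L192P to WT was 1.02, 1.04, 1.09 and 1.71. The values rest on 88 to 402 raw counts per library. With a mean of 234.2 normalized counts Ngb lay above 68.5% of the genes with counts.

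Cygb (chromosome 11, 116535970 to 116545406, minus strand) was also higher in L192P, by a smaller factor. Its normalized counts were 2469, 2514, 2548 and 2083 in L192P replicates 1 to 4 and 2033, 1913, 1926 and 1829 in the WT replicates. The groups did not overlap, but L192P replicate 4, at 2083, was only just above the highest WT library, at 2033, while the other L192P libraries lay close together. Means of 2404 ± 216.1 and 1925 ± 84.0 (SD, n = 4) gave a ratio of 1.25, with a log2 fold change of 0.32 and a standard error of 0.08. Each L192P library exceeded the WT library of its number, with log2 ratios of 0.28, 0.39, 0.40 and 0.19. An exon of Prcd on the opposite strand overlaps 413 exon bases of Cygb, and whether the counting used strand is not given in the sources used here. Prcd had 41 to 194 raw counts per library against 1562 to 3387 for Cygb, and its normalized counts of 95.4 ± 12.1 in L192P and 84.3 ± 26.0 in WT did not differ detectably (DESeq2 adjusted p = 0.939).

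**Figure D1:**
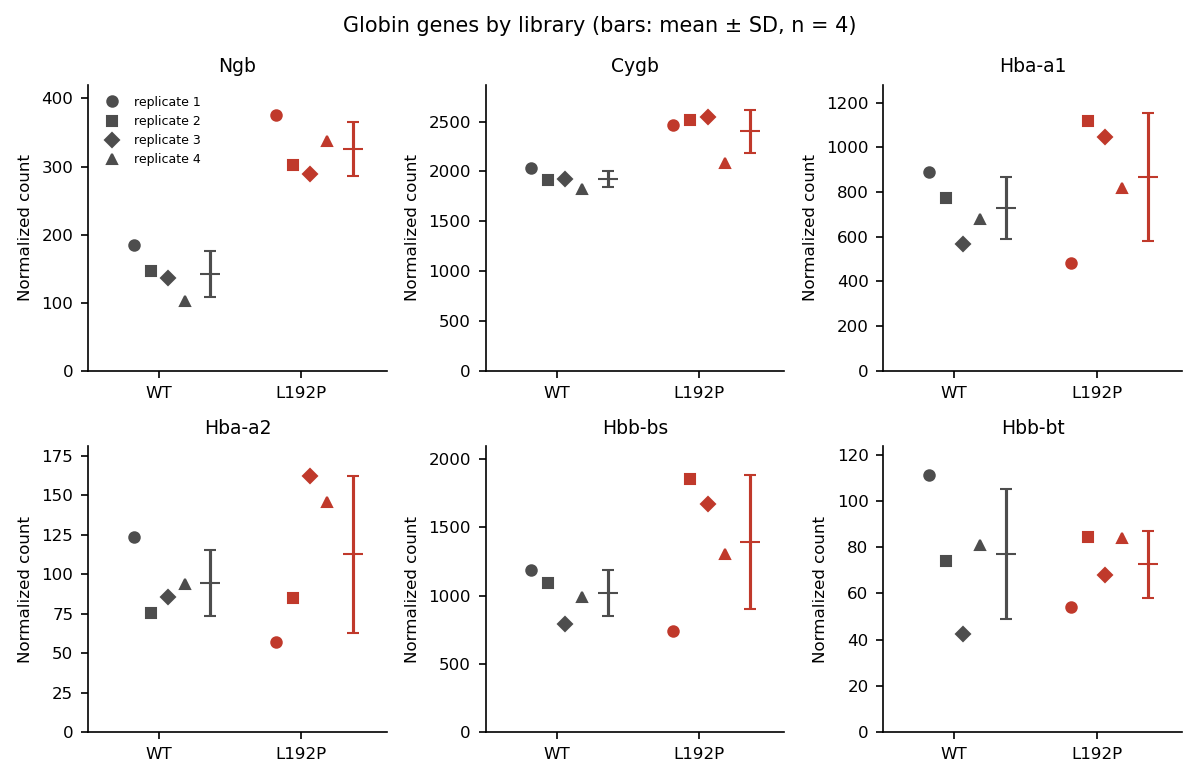
Normalized counts (counts divided by DESeq2 size factors, y axis from 0) of the 6 globin genes in the 4 WT (grey) and 4 L192P (red) libraries, 1 panel per gene, with symbols for the replicate number and the group mean ± SD beside them. Ngb (288.3 to 375.6 against 103.0 to 184.9) and Cygb (2083 to 2548 against 1829 to 2033) do not overlap between genotypes, and for every hemoglobin gene L192P replicate 1 lies below WT replicate 1.

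Ngb and Cygb were the members called in the fit over all genes, 2 of 6, beside 1.36% of all tested genes and 0.789% called as higher. They were also the members whose groups did not overlap, beside 5.97% of tested genes without overlap and 3.01% without overlap and higher in L192P. As the 6 were picked with this contrast known, nothing is read from these counts. Over all alternatives, Ngb was called in 18 of 18 analyses, with log2 fold changes from 1.07 (without WT replicate 4) to 1.33 (without WT replicate 1). Cygb was called in 13 of 18, with log2 fold changes from 0.29 to 0.38, and was not called with edgeR (0.314% of tested genes called), with limma-voom (0.266%), or in DESeq2 fits without L192P replicate 2 (0.747% of tested genes called), L192P replicate 3 (0.76%) or WT replicate 4 (0.608%). Relative to Cygb, Ngb had 113.1 to 162.2 counts per 1000 Cygb counts in L192P and 56.3 to 90.9 in WT. The ranges were separate on this within-library scale, which does not depend on size factors. Both genes of this ratio were chosen by the same contrast, so it is a description only.

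The hemoglobin genes varied more between libraries than Ngb or Cygb did in L192P, and none of the 4 was called. Hbb-bs, the more abundant beta gene, had 742.7, 1853, 1667 and 1304 normalized counts in L192P replicates 1 to 4. In WT it had 1184, 1095, 791.9 and 991.6. Replicate 1 was the lowest library of L192P and the highest of WT, so the groups overlapped, and the log2 fold change was 0.45 ± 0.30 (SE). Hba-a1, the more abundant alpha gene, had 481.1, 1118, 1045 and 819.3 normalized counts in L192P. The WT values were 889.7, 773.9, 567.0 and 680.2, with the same arrangement of replicate 1 and a log2 fold change of 0.25 ± 0.29 (SE).

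The minor copies were counted at lower levels and showed the same break at replicate 1. Hba-a2 had 57.0, 85.3, 162.6 and 146.1 normalized counts in L192P and 123.8, 75.7, 85.8 and 93.7 in WT. Hbb-bt had 54.2, 84.2, 68.0 and 83.8 in L192P and 111.1, 74.0, 42.4 and 80.8 in WT. Their log2 fold changes were 0.25 and -0.09, with standard errors of 0.28 and 0.27, on raw counts of 61 to 141 and 39 to 131 per library. Each of the 4 genes was higher in L192P in 3 of the 4 same-numbered pairs and lower in pair 1, where the log2 ratios were -0.67 for Hbb-bs, -0.89 for Hba-a1, -1.12 for Hba-a2 and -1.04 for Hbb-bt.

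Over the 4 genes summed, L192P replicates 1 to 4 held 1335, 3140, 2942 and 2354 normalized counts of hemoglobin. WT replicates held 2308, 2018, 1487 and 1846. The lowest and the highest L192P library differed 2.35-fold, and both the lowest and the highest of all 8 libraries were L192P. The means were 2443 ± 810.4 and 1915 ± 343.1 (SD, n = 4). With both copies summed before the fit, the log2 fold change was 0.25 ± 0.29 (SE) for alpha and 0.42 ± 0.30 (SE) for beta, and neither was called. The median log2 fold change of the 4 genes was 0.25, against 0.00191 for all tested genes. In these bulk libraries fewer cells of a type and less RNA per cell cannot be told apart.

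The hemoglobin values turned on the replicate 1 libraries. Among the 6 libraries of replicates 2 to 4, the log2 fold changes of L192P over WT were 0.74 ± 0.12 for Hbb-bs, 0.55 ± 0.13 for Hba-a1, 0.63 ± 0.25 for Hba-a2 and 0.25 ± 0.29 for Hbb-bt (SE, 3 libraries against 3). In that fit of the same contrast Hbb-bs and Hba-a1 were called, beside 3.46% of all tested genes and 1.65% called as higher, and nothing is read from these calls. Without L192P replicate 1 alone, where 1.61% of tested genes were called, Hbb-bs was called (log2 fold change 0.66) and Hba-a1 was not (0.45). Ngb and Cygb had log2 fold changes of 1.25 and 0.33 among the same 6 libraries, close to their values over all 8, and both were called. With the replicate number as a block, where 4.25% of tested genes were called, the log2 fold changes were 1.20 for Ngb, 0.32 for Cygb, 0.21 for Hba-a1, 0.17 for Hba-a2, 0.40 for Hbb-bs and -0.04 for Hbb-bt.

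The ratio of alpha to beta hemoglobin counts varied less than their sum. It was 0.675, 0.621, 0.696 and 0.695 in L192P replicates 1 to 4 and 0.783, 0.727, 0.783 and 0.722 in WT. The groups did not overlap, with means of 0.672 ± 0.035 and 0.753 ± 0.034 (SD, n = 4), and the highest and lowest of the 8 ratios differed 1.26-fold where the sums differed 2.35-fold. This ratio was picked out after its values had been seen, so no test was made. It also depends on how reads common to the copies were counted, since the alpha copies share more sequence than the beta copies. Alpha made up 41.0% of hemoglobin counts in L192P replicate 4 (95% Wilson interval 38.9 to 43.2) and 41.9% in WT replicate 4 (39.5 to 44.4), so the nearest libraries of the 2 genotypes were not distinguishable at this depth. The widest contrast was between L192P replicate 2, at 38.3% (36.5 to 40.1), and WT replicate 1, at 43.9% (42.0 to 45.8). These intervals cover counting error only.

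Within the beta pair, Hbb-bt supplied 6.80%, 4.35%, 3.92% and 6.04% of the counts in L192P replicates 1 to 4 and 8.58%, 6.33%, 5.08% and 7.53% in WT. The groups overlapped, yet each L192P library was below the WT library of its number. Wilson intervals for 1 library, such as 4.81 to 7.56 for L192P replicate 4 and 6.0 to 9.42 for WT replicate 4, were wider than most of these steps. Within the alpha pair, Hba-a2 supplied 7.10% to 15.1% of counts in L192P and 8.91% to 13.1% in WT, higher in L192P in 2 of 4 pairs. Unlike the ratio of alpha to beta, these shares varied nearly as much as the hemoglobin sum, with 2.19-fold between the highest and lowest library for Hbb-bt and 2.13-fold for Hba-a2. Both shares, like the ratio, depend on how reads common to the copies were assigned.

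**Figure D2:**
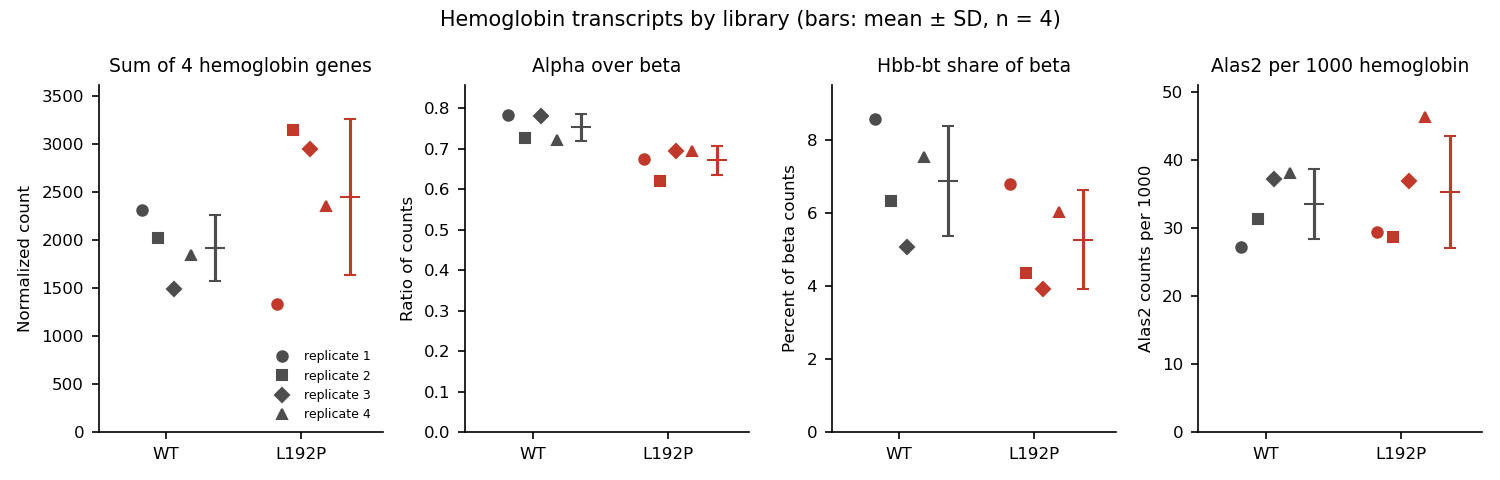
Hemoglobin transcripts in the 4 WT (grey) and 4 L192P (red) libraries, as the sum of normalized counts of the 4 genes, the ratio of alpha to beta counts, the percent of beta counts from Hbb-bt, and Alas2 counts per 1000 hemoglobin counts, each with the group mean ± SD and axes from 0. The sum runs from 1335 to 3140 and overlaps between genotypes, whereas the alpha to beta ratio is 0.621 to 0.696 in L192P and 0.722 to 0.783 in WT.

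Among 9 other globin genes, the embryonic Hba-x, Hbb-bh0, Hbb-bh1 and Hbb-bh2 had no counts in any library, and Hbb-y had counts in WT replicate 2 alone (1.69 normalized counts). Myoglobin (Mb), the oxygen store of muscle, was near the floor at 2.80 to 18.2 normalized counts in L192P and 5.46 to 9.78 in WT. Hbq1a, a theta-type gene of the alpha cluster, had 2.28 to 15.0 and 4.34 to 10.5, and androglobin (Adgb), known from testis and ciliated cells, had 4.79 to 17.8 and 3.26 to 13.7. Of the 9, 3 were tested and 0 were called by DESeq2, 0 at an unadjusted p under 0.05 and 0 with edgeR or limma-voom. Together the 9 genes had 29.6 to 43.8 normalized counts in L192P and 19.6 to 32.8 in WT, against 4180 to 5955 and 3549 to 4527 for the 6 genes described here.

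Heme synthesis supplies the prosthetic group of all globins, and none of its 9 enzyme genes was called by DESeq2 (0 at an unadjusted p under 0.05, 0 with edgeR and 0 with limma-voom). Their median log2 fold change was 0.01, and their summed level was 7039 to 7651 normalized counts in L192P and 7455 to 7907 in WT. Alas1, the rate-limiting enzyme outside red cells, had 1195 ± 33.1 and 1229 ± 66.6 normalized counts (SD, n = 4). Alas2, its erythroid counterpart, had 39.2, 89.9, 108.4 and 109.0 in L192P replicates 1 to 4 and 62.8, 63.3, 55.4 and 70.2 in WT. As for hemoglobin, the L192P library of replicate 1 was the lowest of all, the other 3 L192P libraries were above every WT library, and the log2 fold change was 0.45 ± 0.28 (SE, DESeq2 adjusted p = 0.661). Per 1000 hemoglobin counts there were 28.6 to 46.3 counts of Alas2 in L192P and 27.2 to 38.0 in WT.

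Genes that break down heme or clear free hemoglobin were not called in either direction. Of 7 genes, 6 were tested and 0 were called by DESeq2, with 0 at an unadjusted p under 0.05 and 0 with edgeR or limma-voom. Hmox1, the inducible heme oxygenase, had 128.4 ± 20.6 normalized counts in L192P and 117.7 ± 10.7 in WT (SD, n = 4), and Cd163, the hemoglobin scavenger receptor of perivascular macrophages, had 106.9 ± 9.55 and 92.3 ± 26.2. Biliverdin reductase Blvra was below every WT library in L192P (449.7 to 488.7 against 509.5 to 519.0), with a log2 fold change of -0.14 that was not called (DESeq2 adjusted p = 0.654).

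Beside the hemoglobin values stand the markers of blood. Of 12 erythroid markers used, 2 were tested, with 0 called by DESeq2, 0 at an unadjusted p under 0.05 and 0 with edgeR or limma-voom. Regulator genes that mark nucleated precursors were low, with Gata1 at 0 to 2.31 and Klf1 at 0.934 to 12.8 normalized counts. The summed erythroid list was 75.7, 126.3, 145.3 and 154.5 in L192P replicates 1 to 4 and 108.4, 97.2, 89.1 and 99.5 in WT. Alas2, which belongs to this list as well as to heme synthesis, supplied most of each sum. Without Alas2, a choice made after the values were seen, the sums were 36.4, 36.4, 36.9 and 45.5 in L192P and 45.5, 33.9, 33.7 and 29.3 in WT, so that L192P replicate 1 no longer stood below the rest. These small sums rest largely on Ermap (17.3 to 22.4 normalized counts in L192P and 18.1 to 23.9 in WT), with the other markers near the floor. Of 15 platelet and leukocyte markers 4 were tested, with 0 called by DESeq2, 0 at an unadjusted p under 0.05 and 0 with edgeR or limma-voom. Their sums were 109.3 to 143.0 and 97.2 to 122.0, with the platelet gene Pf4 at 16.8 to 41.0 in L192P and 15.2 to 24.3 in WT and the neutrophil gene Ly6g at 0. How much of the difference in hemoglobin between libraries came with residual blood was not tested.

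Vessel markers also differed between libraries, and most of all at replicate 1. The 8 brain endothelial markers summed to 419.5, 1075, 1459 and 1457 normalized counts in L192P replicates 1 to 4 and to 479.9, 1025, 682.2 and 1195 in WT. Replicate 1 was thus the lowest endothelial library in both genotypes, while for hemoglobin it was the lowest in L192P and the highest in WT. None of the 8 was called by DESeq2, 1 had an unadjusted p under 0.05, and 0 were called with edgeR or limma-voom. With the replicate block, and among replicates 2 to 4, the transporter gene Slco1a4 was called, 1 of 8. In these fits 4.25% and 3.46% of all tested genes were called. Of 8 mural cell markers 7 were tested and 0 were called by DESeq2, 0 at an unadjusted p under 0.05 and 0 with edgeR or limma-voom, with sums of 1540 to 3061 in L192P and 1769 to 2944 in WT.

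Fibroblasts are a cell type in which Cygb is known. All 8 of their markers were tested, 1 rose and 0 fell, beside 0.789% of all tested genes called as higher. The median log2 fold change was 0.61. An unadjusted p under 0.05 was found for 5, without the share of all genes at that threshold for comparison. The gene that rose was Aldh1a2, a retinaldehyde dehydrogenase of the meninges, which had a mean of 396.6 ± 116.1 in L192P and of 226.3 ± 30.9 in WT (normalized counts, SD, n = 4), a log2 fold change of 0.80 ± 0.18 (SE, DESeq2 adjusted p = 0.00195). With edgeR and with limma-voom 0 of the 8 were called, the adjusted p of Aldh1a2 being 0.0960 and 0.143. Among replicates 2 to 4 (3.46% of all tested genes called), Lum, Col1a2 and Ogn were called as well, 4 of 8. With the replicate block (4.25%) Col1a2 and Aldh1a2 were called, 2 of 8. The list summed to 1138, 1905, 2019 and 1412 in L192P replicates 1 to 4 and to 1183, 1250, 987.4 and 894.4 in WT. In replicate 1 the sums of both genotypes were alike, with L192P slightly below WT, whereas Cygb was higher in L192P by 0.28 on the log2 scale. The part of fibroblasts in the Cygb difference was not tested.

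Ngb was set beside 2 groups of neurons. Of 16 hypothalamic markers, Kiss1 and Npvf had no counts, 10 were tested, 4 rose (Avp, Oxt, Gal and Otp) and 0 fell, with 6 at an unadjusted p under 0.05. Vasopressin (Avp) and oxytocin (Oxt), neuropeptides of the magnocellular nuclei, had log2 fold changes of 4.22 ± 0.83 and 4.53 ± 0.72 (SE, DESeq2 adjusted p = 0.000155 and 3.69e-07). The neuropeptide galanin (Gal) and the transcription factor Otp had 1.78 ± 0.48 and 3.41 ± 0.66 (SE, DESeq2 adjusted p = 0.0209 and 0.000129). In WT these genes were low, at 10.5 to 21.9 normalized counts for Avp, 2.73 to 7.60 for Oxt and 3.51 to 11.9 for Gal. WT values of Otp ran from 1.09 to 11.8, near the floor outside replicate 1. With edgeR Avp and Oxt were called, 2 of the list, and with limma-voom 0. With the replicate block (4.25% of all tested genes called) Avp and the releasing hormone gene Trh were called, 2 of the list. Gal was no longer called by DESeq2 when L192P replicate 1, L192P replicate 4, WT replicate 3 or WT replicate 4 was left out.

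Library by library, the summed hypothalamic list and Ngb did not rank alike, while single genes of the list differed. Trh had 225.2, 137.7, 111.8 and 190.5 normalized counts in L192P replicates 1 to 4 and 134.8, 98.9, 60.8 and 56.2 in WT. It ranked the libraries within both genotypes as Ngb did. Gal did so in L192P alone, and Avp, Oxt and Otp in neither genotype. The list summed to 997.8, 355.1, 1408 and 934.3 normalized counts in L192P replicates 1 to 4 and to 320.5, 224.8, 212.9 and 330.1 in WT. L192P replicate 2, with 355.1, was the lowest of its genotype and was closest to WT. Its Avp of 19.4 normalized counts lay within the WT range of 10.5 to 21.9, whereas its Oxt (19.4 against at most 7.60 in WT), Gal (20.5 against 11.9) and Otp (12.5 against 11.8) were above every WT library. Pomc supplied 174.4 of the sum in WT replicate 4, and without Pomc, a choice made after the values were seen, L192P replicate 2 had 326.6 against 155.7 to 275.9 in WT. Its Ngb of 301.6 was above the highest WT value of 184.9. L192P replicate 3 had the highest hypothalamic sum and, at 288.3, the lowest Ngb of its genotype. Much of that sum came from Avp (458.9 normalized counts), Pmch (261.7) and Hcrt (177.6). Without L192P replicate 2 the log2 fold change of Ngb was 1.22, and without L192P replicate 3 it was 1.24, against 1.18 over all libraries. How much Ngb came with hypothalamic RNA was not tested.

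The second group was the cortical interneurons that express Nos1, Chodl, Sst, Npy and Tacr1. All 5 were tested and 0 were called by DESeq2, with 2 at an unadjusted p under 0.05 and 0 with edgeR or limma-voom. Nos1, neuronal nitric oxide synthase, had 1485 ± 118.3 normalized counts in L192P and 1221 ± 116.1 in WT (SD, n = 4, DESeq2 adjusted p = 0.0728), and Npy had 1417 ± 223.3 and 1823 ± 148.5 (DESeq2 adjusted p = 0.0519). With the replicate block (4.25% of all tested genes called) both were called, 2 of 5, Nos1 in the upward direction of Ngb and Npy downward. The summed list was 7890 to 9384 in L192P and 8047 to 10140 in WT, and most of it was Sst, which had 5109 to 5996 in L192P and 4696 to 6835 in WT. Without Sst, a choice made after the values were seen, the sums were 2780 to 3388 and 3215 to 3401.

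**Figure D3:**
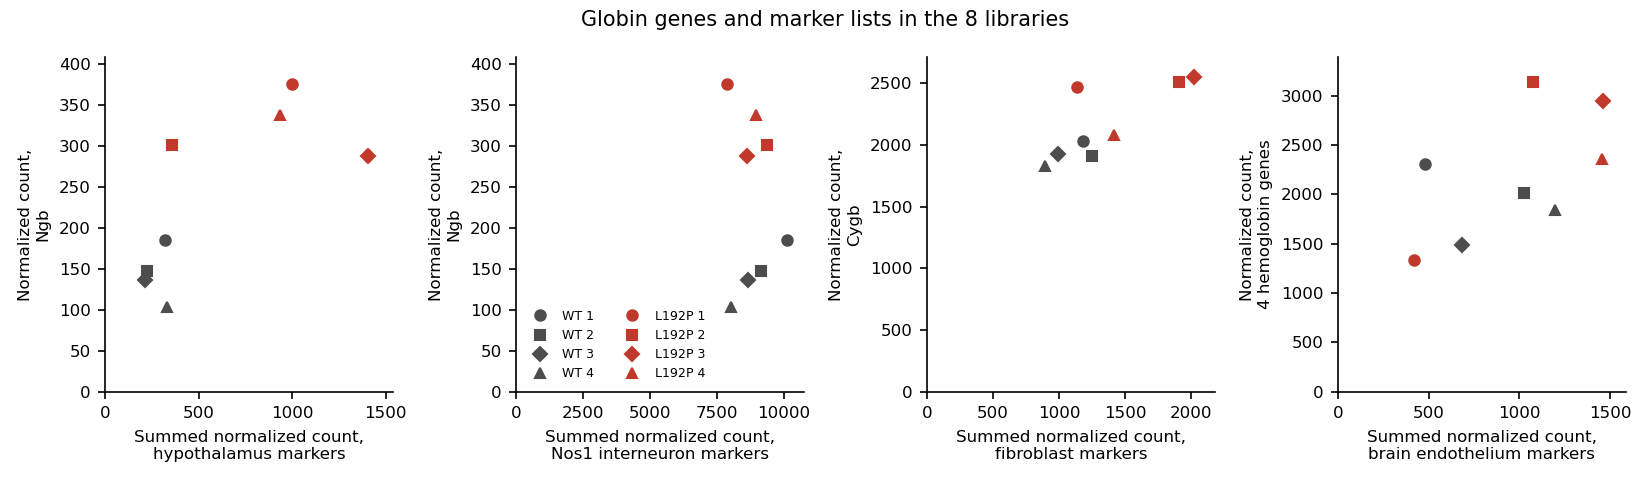
Normalized counts of Ngb, Cygb and the 4 hemoglobin genes summed (y axes) against summed normalized counts of marker lists (x axes) in the 8 libraries, coloured by genotype and with symbols for the replicate number. Ngb in L192P replicate 2 (301.6) lies above all WT libraries, as its hypothalamic sum (355.1) does by a smaller margin, and Cygb in L192P replicate 1 (2469) lies above WT at a fibroblast sum (1138) within the WT range. Hemoglobin and endothelial markers are both lowest in L192P replicate 1, whereas WT replicate 1 has the lowest endothelial (479.9) and the highest hemoglobin sum (2308) of its genotype.

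Genes of the response to low oxygen, a setting in which both Ngb and Cygb are often studied, were examined next. All 14 were tested, 0 were called as higher and 1 fell, with 3 at an unadjusted p under 0.05 and a median log2 fold change of -0.08. The gene that fell was Vegfa, the vascular growth factor, with 1303, 1154, 1110 and 1273 normalized counts in L192P replicates 1 to 4 against 1587, 1726, 1435 and 1528 in the WT replicates. The difference was -0.38 ± 0.08 on the log2 scale (SE, DESeq2 adjusted p = 0.00138), with no overlap between the groups. With edgeR and with limma-voom 0 of the 14 were called, the adjusted p of Vegfa being 0.0595 and 0.0659. With the replicate block (4.25% of all tested genes called) Vegfa and the lactate dehydrogenase gene Ldha were called as lower, 2 of 14. Car9, which is strongly induced by low oxygen in many cells, was at 1.20 to 14.8 and 7.29 to 14.1. Hif1a, the oxygen-regulated transcription factor, had 1965 ± 75.5 normalized counts in L192P and 1728 ± 114.0 in WT (SD, n = 4, DESeq2 adjusted p = 0.192), and it was called as higher without WT replicate 1 (adjusted p = 0.0199) and among replicates 2 to 4 (adjusted p = 0.0381).

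The remaining marker lists describe the dissection. Of 7 striatal markers 0 rose and 1 fell, Penk (log2 fold change -0.51, DESeq2 adjusted p = 0.000286), and with edgeR or limma-voom 0 were called. The 6 choroid plexus markers had 0 calls by DESeq2, edgeR or limma-voom, 0 at an unadjusted p under 0.05, and sums of 16600 to 38270 in L192P and 14420 to 32720 in WT. Of 10 cortical markers 1 rose, Gad2 (log2 fold change 0.34, DESeq2 adjusted p = 0.0235), and 0 with edgeR or limma-voom. Gad2 was not called when L192P replicate 2 or 4 or WT replicate 2, 3 or 4 was left out. Of 5 sex-linked genes 1 was tested and 0 were called by DESeq2, with 0 at an unadjusted p under 0.05 and 0 with edgeR or limma-voom. With the replicate block (4.25% of all tested genes called) the calls were 4 of the 7 striatal, 4 of the 10 cortical and 1 of the 5 sex-linked genes (Xist). Of the striatal genes 3 were called without WT replicate 1, where 496 of all 15318 tested genes were called. Among replicates 2 to 4 (3.46% of all tested genes called) 3 striatal genes were called, not Penk. The part of these lists in the values of the globin genes was not tested.

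The genes whose library-to-library pattern within genotypes was most like that of Ngb, by Pearson correlation over the 8 libraries of log2(normalized count + 1) centred on the genotype mean, were Yars2 (0.98), Gtf2f2 (0.97), 2310030G06Rik (0.97), Cetn3 (0.97) and Polr2h (0.97), out of 13421 genes with a mean of at least 50 normalized counts. For Cygb they were 6820408C15Rik (0.97), Otub1 (0.97), Zcchc9 (0.96), Ankrd6 (0.95) and Fgfbp3 (0.95). For the summed hemoglobin genes they were Lgals1 (0.97), Zdhhc20 (0.96), Pear1 (0.96), Gm5617 (0.96) and Col4a5 (0.96). The points share library depth and handling, and with 8 libraries and this many genes high values arise readily. On the same measure Ngb and Cygb correlated at 0.22, Ngb and the hemoglobin sum at -0.17, Cygb and the hemoglobin sum at 0.17, and Alas2 and the hemoglobin sum at 0.83, the last with a Spearman coefficient of 0.48.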

How the data were processed

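Cortical polyadenylated RNA was sequenced as stranded mRNA libraries from 4 L192P and 4 WT samples. The authors aligned reads to Ensembl GRCm39 with STAR (2.7.9a) and tallied them per gene with featureCounts (1.5.1, versions per the submitters' processing notes), and deposited raw counts per library without pooling. The Ensembl release, the strand setting and the handling of reads with several matches are not given in the sources used here. A second deposited table holds the same counts divided by 1 factor per library and was not used.

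Counts were tested with DESeq2 1.42.0 in R 4.3.3, with a single term for genotype, size factors by median of ratios and independent filtering at 0.05, following the study's choice of tool and threshold. Fold changes are unshrunken. The lowest library total was 20396357 counts. Genes named are the 6 globin genes, other globins by their counts, list genes that were called, up to 3 defining genes per list, and the 5 most alike genes. Other list genes called by an alternative analysis were chosen after their values were seen. So were genes singled out for their values (Blvra, Nos1, Npy, Hif1a, Car9, Trh, Pmch, Hcrt, Ermap). The members and the lists were chosen with earlier results of these data known. Some listed marker genes are not reported here and were left out of their lists. Sequences and gene models came from GENCODE M39 (GRCm39) and RefSeq (promoters on GRCm38.p6, and miRNAs).

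Deviations from the genotype mean correlated between same-numbered libraries at 0.23 to 0.63 over 13422 genes, against -0.38 to 0.14 for the 12 other pairs. Same-numbered ratios and a replicate block were therefore added, while the main fit did not use the numbers. What the numbers stand for is not stated. The highest value, 0.63, was between the replicate 1 libraries, which share low Xist. Deviations within a genotype cancel out, so high values for some pairs lower those of others. No pair of libraries of 1 genotype agreed within sampling noise (chi-square per degree of freedom 5.52 to 22.6). Alternatives were edgeR 4.0.16 (quasi-likelihood) and limma 3.58.1 (voom), other size factors and filters, the replicate block, replicates 2 to 4 alone, summed hemoglobin copies, and leaving out each library. The DESeq2, edgeR and limma-voom fits were tested on simulated counts.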

Additional observations from a re-analysis of the deposited data

Results flagged for a closer look

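Each group of 4 libraries was searched for 1 library that stands away from the remaining 3. The distance from that library to its closest neighbour was divided by the spread from lowest to highest (gap share) and set against Dixon's 95% limit. The search covered the globin genes, their sums and ratio, the called list genes, Alas2 and Prcd. Of 36 groups, 5 exceeded the limit, where chance gives about 1 in 20 groups (1.8 of 36).

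Among the globin genes, Cygb in L192P was the 1 such case. It was lowest in L192P replicate 4, at 2083 against 2469 to 2548 (gap share 0.83, only just over the limit). The other 4 cases were marker genes. Oxt in L192P replicate 2 had 19.4 normalized counts against 143.0 to 154.5 (gap share 0.915), and Avp in WT replicate 1 had 21.9 against 10.5 to 11.9 (0.875). Otp in WT replicate 1 had 11.8 against 1.09 to 1.17 (0.992). These other WT values of Otp lie near the floor, so its gap share is a weak flag. Aldh1a2 in WT replicate 4 had 180.3 against 236.8 to 244.0 (0.887). No explanation for these libraries was tested.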

How the results depend on the processing

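Of the 253 genes called over all genes, the number became 53 with edgeR, 45 with limma-voom, 533 with the replicate block, 500 among replicates 2 to 4, and 112 (without WT replicate 4) to 496 (without WT replicate 1) when single libraries were left out. It also moved by more than 1.5-fold to 156, 126 and 157 when L192P replicate 2, 3 or 4 was dropped, and to 114 and 127 when WT replicate 2 or 3 was. Of the 6 globin genes, 2 were called, and the count was 1 with edgeR, 1 with limma-voom, 4 among replicates 2 to 4, and 1 to 3 without single libraries, where Cygb was lost without L192P replicates 2 or 3 or WT replicate 4. The log2 fold change of Hbb-bt turned from -0.09 to 0.25 among replicates 2 to 4, to 0.03 without L192P replicate 1 and to 0.13 without WT replicate 1 (-0.29 to 0.13 over all single libraries left out). Ngb kept its direction and its call in all 18 alternatives, which refit the contrast that chose it and so are no independent support, and the median of the 4 hemoglobin genes stayed above 0 (0.08 to 0.46 without single libraries). Of the listed genes other than the 6, 99 were tested and 8 were called, beside 1.36% of all tested genes. The count was 2 of 90 with edgeR (0.314% of all tested genes) and 0 of 90 with limma-voom (0.266%, with 24 at an unadjusted p under 0.05). It was 18 of 75 with the replicate block (4.25%) and 20 of 85 among replicates 2 to 4 (3.46%). Without single libraries it was 6 to 17 (13 of 90 without L192P replicate 1, 1.61%). The lists were chosen with earlier results known, so nothing is read from these counts. For single genes other than Ngb, 189 of 224 values under an alternative kept direction and side of the threshold, 29 lost the call, 3 gained it and 3 changed sign. Under the replicate block Hbb-bt, Gal, Otp and Oxt had no adjusted p, and the block changed no call of a globin gene. The cause of these shifts was not tested. Hemoglobin copies share most of their sequence, Hbb-bt and Hba-a2 rest on at most 131 and 141 counts per library, and with 4 libraries per genotype, 1 of each apart from the rest, small differences in hemoglobin are beyond what these data resolve.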
